A study of Mus musculus with 19 samples.

Results

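The loci described here were 8 windows of the mouse genome that hold H19 and Igf2, Dlk1 and Meg3, Kcnq1ot1, Peg3, Igf2r, Gnas, Grb10 and Nnat. Every peak of 5-hydroxymethylcytosine (5hmC) that overlapped a window by at least 1 bp was taken, which gave 570 of the 1601520 peaks in 18 lists. The windows together spanned 690 kb of the mm9 build, and overlapping peaks merged into 139 regions. Imprinted genes are expressed mainly from one parental copy, under a control region that carries DNA methylation on only one of the copies. 5hmC is made when TET enzymes oxidise 5-methylcytosine, and it can be a step towards loss of methylation. In reprogrammed cells the Dlk1 and Meg3 locus is known for a tendency to gain abnormal methylation.

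The study compared knockout pre-iPSC lines KO1 and KO2, each sampled at days 0, 2 and 10 of culture, with wild type (WT) pre-iPSCs, which had libraries A, B and C on each of those days. Pre-iPSCs are cells held part of the way from fibroblast to pluripotent stem cell. All of these cells were kept in ascorbic acid at 50 µg/mL with 2i, the inhibitors CHIR-99021 and PD-0325901, and the labels give day 0 the same treatment. The gene that was deleted is not given in the sources used here, so no target could be checked. For the V6.5 line of embryonic stem cells from mouse (mESC) there was a single library at 0, at 12 and at 72 h, and 1 input library completed the 19 samples. Whether replicates came from cultures of their own is not stated, so each p-value reflects the spread between these libraries alone, which may be technical. Peak lists hold neither expression nor allele, so the cell type could not be checked on markers and the parental copies could not be told apart.

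The deposited lists held 55134 to 161004 peaks in pre-iPSCs and 24130 to 33576 in mESC. In WT, D0 lists held 61975 to 115652 peaks, D2 lists 106093 to 161004 and D10 lists 55134 to 86465, and a longer list tends to cover more of any region. Cover, in base pairs (bp) of a window under peaks, was therefore taken under the 55130 strongest peaks of each pre-iPSC list unless all deposited peaks are named, and under whole lists in mESC. Equal numbers are not equal strength. The weakest peak kept had a -log10 p of 13.6, 12.7 and 10.1 in WT D2 A, B and C. At D10 it was 8.4, 7.36 and 4.03 in WT, and 12.1 and 9.62 in KO1 and KO2. A peak left out at D2 can thus be stronger than one counted in WT D10. The read depth behind the peaks is unknown. Peaks in the loci had a median length of 335 bp and a median fold enrichment of 4.71, close to the 341 bp and 4.84 of all peaks on chromosomes 1 to 19 and X. Fold enrichments are the authors' own values per peak.

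Cytosine followed by guanine (CpG) is the usual site of methylation, so promoters of the genes on which the results turn are shown with each CpG in capitals. The sequences, of 300 bases each, are from RefSeq on GRCm38.p6, where 9 of the 10 genes matched with 17 promoters between them; H19 had no entry. The peaks are on mm9, and their place relative to these starts was not determined. The start of Gnas with the most CpG lay at chr2:174329756-174330055 (plus strand) and that with the fewest at chr2:174284070-174284369 (plus strand). The start of Igf2r lay at chr17:12769657-12769956 (minus strand), that of Dlk1 at chr12:109452573-109452872 (plus strand) and the first listed of Meg3 at chr12:109540746-109541045 (plus strand).
Gnas, most CpG: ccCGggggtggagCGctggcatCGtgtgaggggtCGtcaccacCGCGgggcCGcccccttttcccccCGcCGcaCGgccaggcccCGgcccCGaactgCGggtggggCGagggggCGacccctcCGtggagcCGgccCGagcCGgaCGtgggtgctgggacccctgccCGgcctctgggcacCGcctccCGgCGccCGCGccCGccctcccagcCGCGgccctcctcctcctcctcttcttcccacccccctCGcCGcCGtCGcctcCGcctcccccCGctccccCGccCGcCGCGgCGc
Gnas, fewest CpG: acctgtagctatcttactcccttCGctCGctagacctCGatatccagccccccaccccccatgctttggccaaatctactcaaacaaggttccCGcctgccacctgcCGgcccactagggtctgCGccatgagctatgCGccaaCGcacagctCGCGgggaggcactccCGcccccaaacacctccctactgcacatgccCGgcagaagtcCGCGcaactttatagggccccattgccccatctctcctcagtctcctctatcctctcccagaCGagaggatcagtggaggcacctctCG
Igf2r: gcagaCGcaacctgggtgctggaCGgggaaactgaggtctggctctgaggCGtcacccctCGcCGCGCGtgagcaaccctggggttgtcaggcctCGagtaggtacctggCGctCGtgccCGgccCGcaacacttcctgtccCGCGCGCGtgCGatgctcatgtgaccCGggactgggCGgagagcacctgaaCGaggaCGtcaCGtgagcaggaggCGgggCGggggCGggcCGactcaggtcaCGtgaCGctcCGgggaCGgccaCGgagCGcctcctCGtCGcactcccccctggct
Dlk1: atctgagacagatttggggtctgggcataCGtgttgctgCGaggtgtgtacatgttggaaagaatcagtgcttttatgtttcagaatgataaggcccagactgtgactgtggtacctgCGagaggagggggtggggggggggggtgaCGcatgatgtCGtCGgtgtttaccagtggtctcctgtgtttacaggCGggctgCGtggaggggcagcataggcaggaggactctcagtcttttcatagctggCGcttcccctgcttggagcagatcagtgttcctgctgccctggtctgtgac
Meg3: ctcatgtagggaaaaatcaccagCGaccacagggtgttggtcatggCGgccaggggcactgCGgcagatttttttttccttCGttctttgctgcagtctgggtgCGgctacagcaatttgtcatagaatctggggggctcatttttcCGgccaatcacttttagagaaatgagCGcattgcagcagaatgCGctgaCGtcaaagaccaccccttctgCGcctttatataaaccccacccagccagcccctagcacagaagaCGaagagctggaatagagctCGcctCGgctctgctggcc
The motif searched was CG, which reads the same on both strands and cannot overlap itself. The Gnas starts held 40 and 16 CpG, which 3.91% and 33.0% of the 32851 promoters in the table reached or passed. The Igf2r start held 34, reached by 7.73% of promoters, the Meg3 start shown held 13 (37.91%) and Dlk1 held 9 (45.78%). A second Meg3 start, at chr12:109545148-109545447 (plus strand), held 1 CpG (94.57%) and is not shown. The median over the 17 promoters of these genes was 14 CpG, against 7 over all promoters, and 94.57% of all promoters held at least 1 CpG.

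Relative to the genome, the loci were covered most at day 10 in WT. The share of the 8 windows under all deposited peaks divided by the share of the genome under peaks was 0.98 ± 0.15 at D0, 1.15 ± 0.16 at D2 and 2.00 ± 0.15 at D10 in WT (SD, n = 3 each). The 3 WT D10 values, 1.83, 2.11 and 2.04, did not overlap those of the earlier days. The covered bp of the loci were themselves lower at D10 than at D2, with 15223, 15699 and 9404 bp against 17975, 20047 and 12007 bp in A, B and C. The share of the genome under peaks was also lower, with 1.20%, 1.08% and 0.67% at D10 against 2.45%, 2.17% and 1.65% at D2. In KO1 the ratio was 1.31, 1.58 and 1.06 at D0, D2 and D10, and in KO2 it was 1.06, 1.5 and 1.72. Both KO D10 libraries thus lay below all 3 WT D10 libraries in this ratio, KO1 well below and KO2 just below. In covered bp of the loci KO1 D10 had 14432 and KO2 D10 had 19466, more than any WT D10 library in KO2. The genome share under peaks was 1.97% and 1.64% in these KO libraries. The mESC ratios were 2.17, 1.63 and 2.10 at 0, 12 and 72 h. With the strongest peaks, WT gave 0.92 ± 0.20, 1.01 ± 0.12 and 2.17 ± 0.12 at D0, D2 and D10. The covered bp of the loci were then higher at D10, with 12447, 12752 and 9404 bp against 6985, 9017 and 7025 bp at D2. KO D10 was 0.95 in KO1 and 1.38 in KO2. These ratios describe windows chosen together and were not tested.

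**Figure D1:**
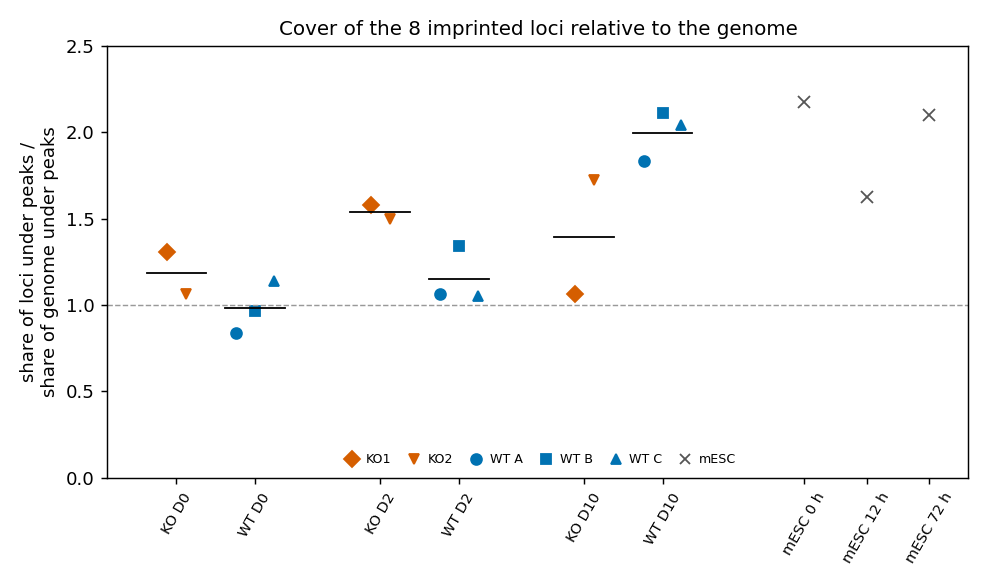
Share of the 8 windows under all deposited peaks divided by the share of the genome under them (y axis, ratio) in each library (x axis, genotype and day, or hours in mESC). Points are libraries, bars are group means and the dashed line marks equal shares; the 3 WT D10 libraries sit at 1.83 to 2.11, above KO1 at 1.06 and KO2 at 1.72 on that day.

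Locus by locus, cover was compared over the 3 WT days with a two-sided exact permutation F test of log2(bp + 200) over all assignments of libraries to days, whose smallest possible p is 0.00357. Cover in 4 of the 8 loci, Gnas, Peg3, Dlk1/Meg3 and Igf2r, changed over WT days at p of 0.05 or less, and with all deposited peaks 2 did, Gnas and Dlk1/Meg3. The same test passed in 40.8% of the 100 kb tiles of the genome that held a peak, and in 40.1% with all deposited peaks, so the count of loci is near the background in the first case and below it in the second. KO was set against WT with a two-sided exact permutation within days over 1000 assignments, where the smallest p is 0.001. No locus passed that test (background 11.8% of tiles), and with all deposited peaks 1 did, Gnas (background 10.0%). The 6 KO libraries come from 2 lines that recur on each day, and the permutation takes them as independent, so the p-values of KO against WT are too small. All of these p-values are for each locus on its own.

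**Figure D2:**
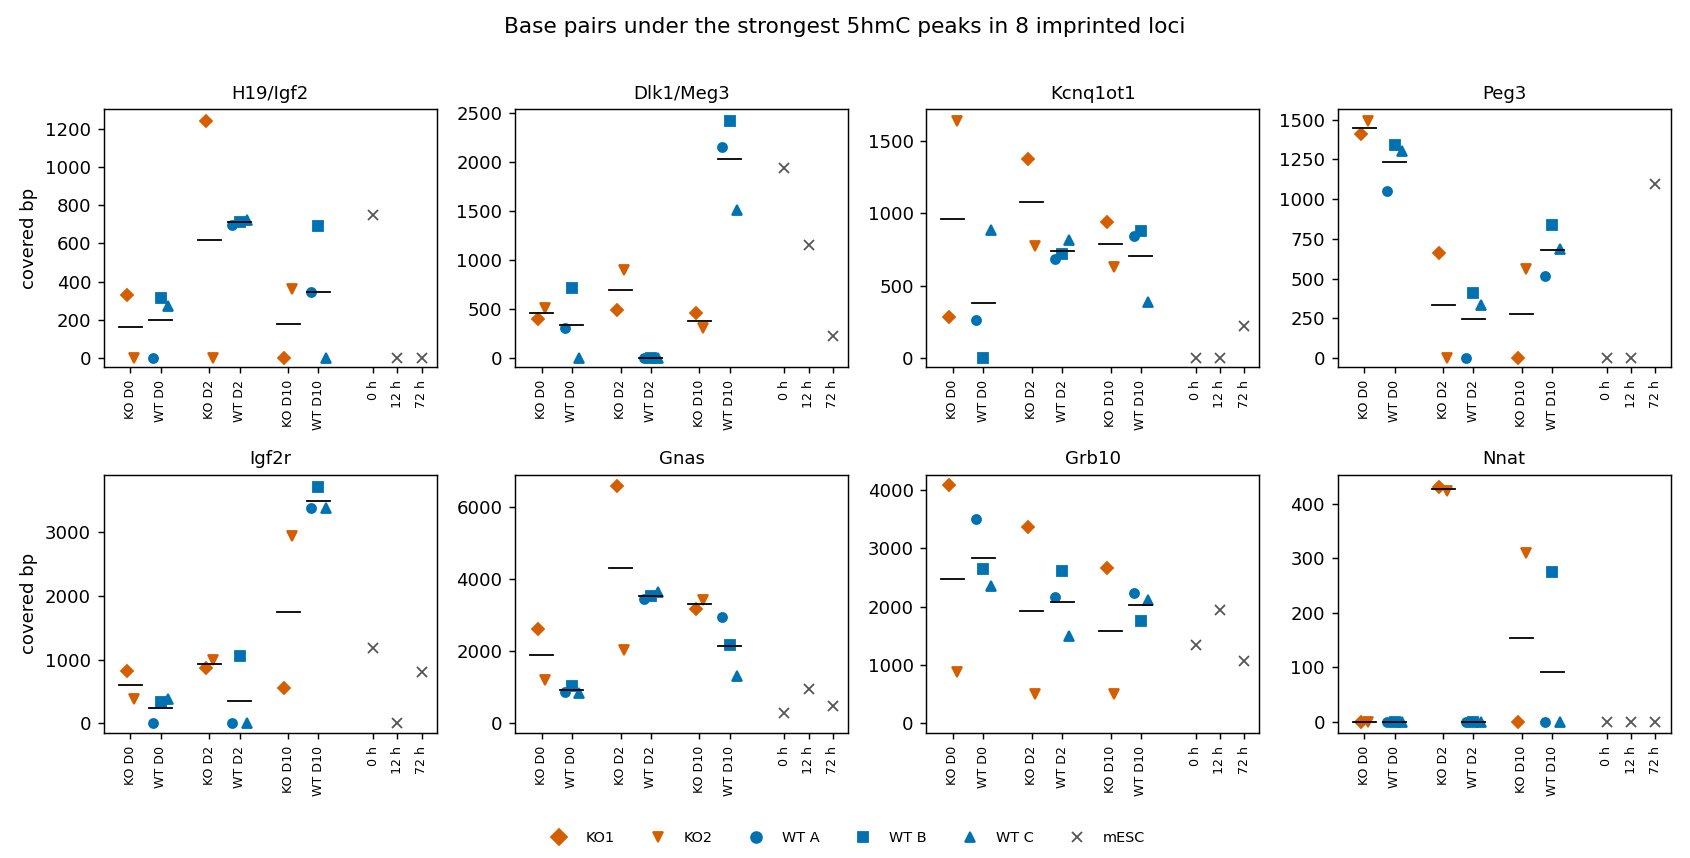
Covered base pairs (y axis, its scale differing by panel) under the strongest peaks of each library in the 8 loci, by genotype and day, with mESC at 0, 12 and 72 h under whole lists. Points are libraries and bars group means; Igf2r and Dlk1/Meg3 are high in WT D10, with 3377 to 3720 and 1513 to 2416 bp, and Gnas is high in WT D2, with 3445 to 3658 bp.

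The WT regions were also compared by presence: a region was gained or lost between days when all 3 libraries of one day and none of the other had a peak there. Of the 296639 merged WT regions, 110 lay in the loci. Between D0 and D2, 14 of the 110 were gained (background 8.43% of all regions, loci 12.73%) and 2 were lost (background 2.55%, loci 1.82%). Between D2 and D10, 6 were gained (background 3.36%, loci 5.45%) and 13 were lost (background 13.9%, loci 11.82%). Between D0 and D10, 13 were gained (background 6.49%, loci 11.82%) and 6 were lost (background 8.91%, loci 5.45%). Under the strongest peaks alone, 5 regions were gained and 1 lost between D0 and D2, 2 were lost between D2 and D10 and 3 between D0 and D10. Gains by D10 remained under these peaks too, though their counts are not given here. At chr12:110733370-110734010, for example, all 3 WT D10 libraries had one of their strongest peaks and no WT D0 or D2 library had any. Those regions were merged anew from the strongest peaks. No share over the genome was taken for them, so they cannot be set against the 110 regions or the backgrounds above. One region, in Gnas, had a peak in every WT library (background 1.15%, loci 0.91%), and none had one of the strongest in every WT library. Peaks in a single WT library made up 43 of the 110 regions, or 39.09%, against 32.76% of all regions. Leaving out a library loosens the rule, so a count can only stay or rise, and no genome share was taken for these counts. Without WT D10 C, 14 regions were gained between D2 and D10 and 23 between D0 and D10. Without WT D2 C, 23 were gained between D0 and D2, while leaving out WT D0 C gave 7 lost between D0 and D2, 14 lost between D0 and D10 and 2 in every remaining library.

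Gnas encodes the stimulatory G protein alpha subunit, which couples hormone receptors to cyclic AMP, and its locus makes further transcripts from maternal or paternal copies. Its window, chr2:174105000-174175000, held 138 of the 570 peaks. The strongest peaks covered 2617 bp in KO1 and 1204 bp in KO2 at D0, against 879, 1026 and 844 bp in WT A, B and C. By D2 the cover was 6589 and 2033 bp in KO1 and KO2, against 3445, 3526 and 3658 bp in WT. By D10 the cover was 3185 and 3436 bp in KO1 and KO2, against 2965, 2184 and 1324 bp in WT. WT cover was higher at D2 than at D0 in every library and lower again at D10, with no overlap between D2 and either other day. KO exceeded every WT library at D0 and D10, whereas at D2 KO1 lay above and KO2 below all 3. The WT means were 916 ± 97, 3543 ± 108 and 2158 ± 821 bp at D0, D2 and D10 (SD, n = 3 each), and the change over days reached the smallest exact permutation p, 0.00357.

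KO cover of Gnas was higher than WT by 0.51 on the log2(bp + 200) scale, averaged over days, with an exact permutation p of 0.091. Under all deposited peaks the difference was 0.78 with an exact permutation p of 0.012. At D10 all peaks covered 5832 and 5564 bp in KO1 and KO2, against 2965, 2432 and 1324 bp in WT, and the KO lists of that day were longer (112303 and 111281 peaks, against 55134 to 86465). The part of list length in that result was not tested. Without KO2 D2 the difference under the strongest peaks was 0.78, exact permutation p = 0.0025, and without KO1 D2 it was 0.24, exact permutation p = 0.393. The KO1 line alone gave 0.93 and KO2 alone 0.09.

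Within Gnas, 8 regions were gained between WT D0 and D2, and 8 were lost between D2 and D10. Of the 8 lost, 6 lay also among the gained, so they had peaks in all 3 WT D2 libraries and in no other WT library. Of the 8 regions lost in WT by D10, KO1 D10 had a peak in 6 and KO2 D10 in 7, while the genome shares for regions lost over those days were 76.75% in KO1 D10 and 53.19% in KO2 D10. The longest of the lost, chr2:174159522-174160329, had a fold enrichment of 4.96 in KO1 D10 and 7.22 in KO2 D10, against 5.44, 4.71 and 4.81 in the WT D2 libraries and no peak in WT D10. The longest region of the locus, chr2:174171245-174172475, was gained between D0 and D10, with 6.64-, 7.995- and 7.06-fold enrichment in WT D10 and no peak in WT D0. WT D2 A and B already had 6.31- and 4.39-fold peaks there, so it was not called gained between D2 and D10. The 1026 bp region at chr2:174163749-174164774 had a peak in all 9 WT libraries. Its peak in KO2 D0, 965 bp at 14.5-fold, was the most significant of all peaks in the 8 loci, yet KO2 D10 had none there.

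**Figure D3:**
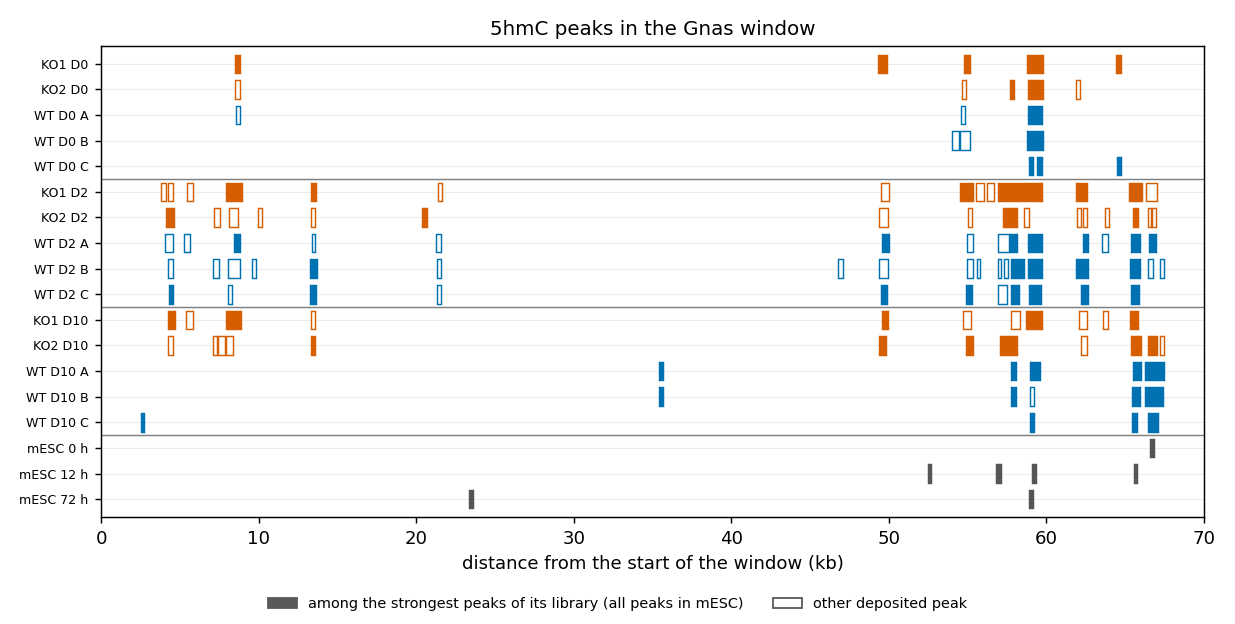
Every 5hmC peak in the Gnas window by library (y axis), at its distance from the start of the window in kb (x axis); filled bars are among the strongest peaks of their library, and open bars are the rest. Peaks near 4, 13 and 50 kb are in all 3 WT D2 libraries and both KO D10 libraries and in none of the WT D10 libraries.

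Igf2r, the receptor that clears IGF2 and is expressed mainly from the maternal copy in mice, had most cover under the strongest peaks in WT D10. In its window, chr17:12870000-12970000, the strongest peaks covered 822 and 381 bp in KO1 and KO2 D0, against 0, 341 and 385 bp in WT. Cover at D2 was 865 and 1002 bp in KO1 and KO2, against 0, 1053 and 0 bp in WT. The 9 deposited peaks of WT D2 A there, the most significant at 6.02-fold, all fell outside its strongest peaks. Cover at D10 was 551 bp in KO1 and 2944 bp in KO2, against 3383, 3720 and 3377 bp in WT. All 3 WT D10 libraries were above every other library, KO2 D10 came next and KO1 D10 stayed within the range of the earlier days. Under all deposited peaks D10 cover was 808 bp in KO1 and 5340 bp in KO2, against 4604, 5199 and 3377 bp in WT, so that KO2 then exceeded every WT library. WT cover averaged 242 ± 211 bp at D0, 351 ± 608 bp at D2 and 3493 ± 196 bp at D10 (SD, n = 3 each), with an exact permutation p of 0.0357 over days. Under all deposited peaks p was 0.0821, with 3264 and 2302 bp in WT D2 A and B, and it was 0.3 with peaks of -log10 q of at least 5 and 0.0679 with 50 bp added in place of 200. Leaving out WT D0 B or C, or any one WT D10 library, gave p of 0.0571 to 0.0857. KO minus WT over all days was 0.44 on the log2 scale, exact permutation p = 0.453.

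The longest Igf2r region, chr17:12880458-12882403, spanned 1946 bp and was the longest of the WT regions in the 8 loci. It had no peak in WT D0, peaks of 5.44-, 5.99- and 3.76-fold in WT D2, and peaks of 7.58-, 6.66- and 5.24-fold in WT D10, so by presence it was gained by D2. KO2 D10 had a 5.33-fold peak there and KO1 D10 had none, although both had one at D2, at 7.23-fold in KO2 and 5.03-fold in KO1. A neighbouring pair of regions, chr17:12896015-12896346 and chr17:12897502-12898134, had peaks in the 3 WT D10 libraries and in none of the other 15. At chr17:12962640-12963286 the reverse held: KO1 had a peak on all 3 days, up to 7.74-fold, and no other library had one. That region was the only one of the 36 without a WT peak that was present on all 3 days of a line.

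**Figure D4:**
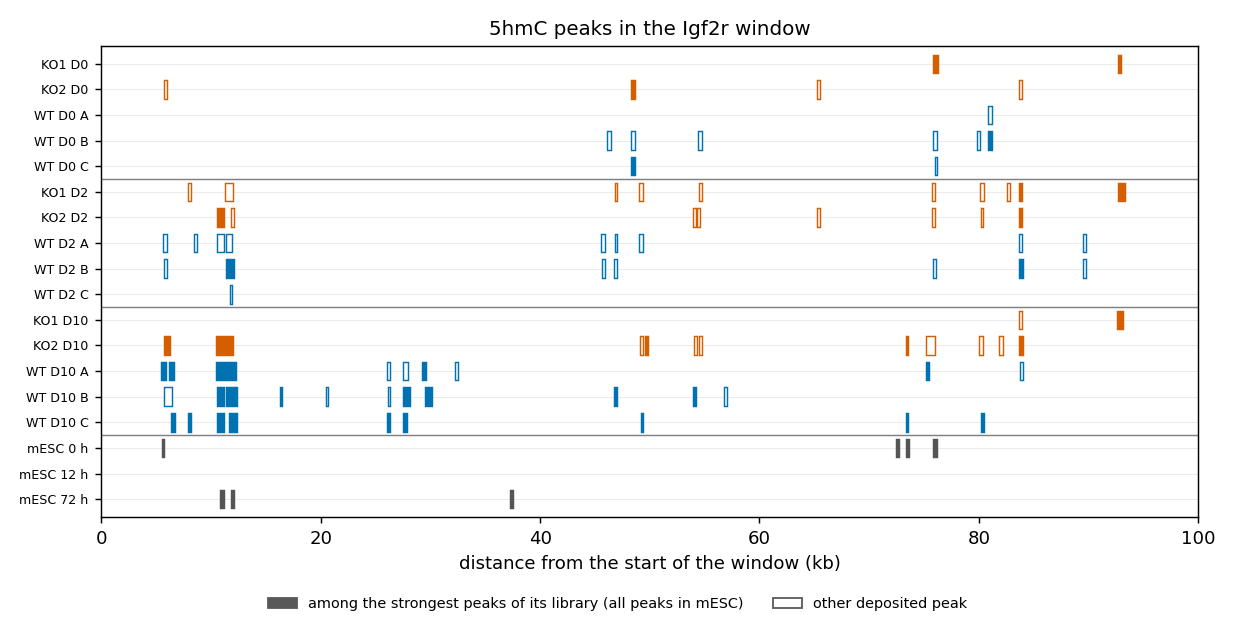
Every 5hmC peak in the Igf2r window by library (y axis), at its distance from the start of the window in kb (x axis), drawn as filled bars where among the strongest of the library. The WT D10 libraries share a block near 10 to 12 kb that KO2 D10 has and KO1 D10 lacks, and KO1 alone has a peak near 93 kb on each day.

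Dlk1, a Notch-like membrane protein expressed from the paternal copy, and Meg3, a long noncoding RNA expressed from the maternal copy, share one control region. In their window, chr12:110685000-110815000, the strongest peaks covered 396 and 514 bp in KO1 and KO2 D0, against 305, 717 and 0 bp in WT. At D2 they covered 492 and 895 bp in KO1 and KO2, against 0 bp in all 3 WT libraries. At D10 they covered 457 and 308 bp in KO1 and KO2, against 2158, 2416 and 1513 bp in WT. WT D10 lay above every KO library and every earlier WT library, and KO D10 lay below KO D2. The WT mean was 2029 ± 465 bp at D10 (SD, n = 3), and the change over WT days had an exact permutation p of 0.0143, or 0.00357 under all deposited peaks and 0.107 with peaks of -log10 q of at least 5. From D2 to D10 the KO mean on the log2(bp + 200) scale differed by -0.59 and the WT mean by 3.46, so that the KO change minus the WT change was -4.05, which was not tested for the locus as a whole. Under all deposited peaks that value was -2.34, with a KO change of -0.11 and a WT change of 2.23. KO1 then had 801 bp at D10, against 492 bp at D2, KO2 had 643 bp at D10, against 1213 bp at D2, and WT D2 held 243, 386 and 245 bp. Averaged over the 3 days, KO minus WT was 0.24 with an exact permutation p of 0.692, and it turned to -0.22 (p = 0.552) under all deposited peaks and to -0.073 with 1000 bp added in place of 200.

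At chr12:110733370-110734010, chr12:110743706-110744243 and chr12:110765504-110766071, peaks were present in all 3 WT D10 libraries and in none of the other 15, KO D10 and mESC included. Their fold enrichments in WT D10 were modest, for example 5.39, 4.91 and 6.15 in A, B and C at the last of them. Elsewhere in the window, chr12:110798589-110799347 had a peak in all 3 WT D0 and both KO D0 libraries and in neither WT D10 nor KO D10. Both KO D10 libraries had a peak near 6 kb from the window's start, where KO2 D0 had the most significant peak of the locus at 8.46-fold, chr12:110691236-110691749. WT D2 A and B had peaks there too, at 4.86- and 4.07-fold. The mESC peaks, 4, 4 and 1 at 0, 12 and 72 h, overlapped none of the 3 WT D10 regions.

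**Figure D5:**
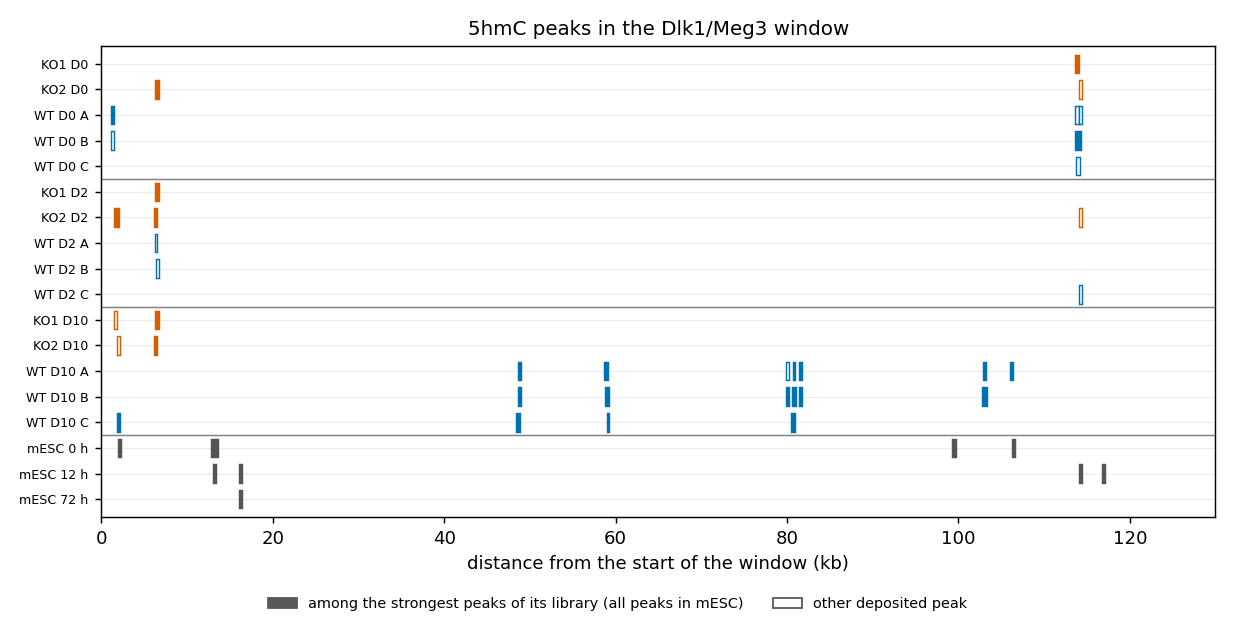
Every 5hmC peak in the window of Dlk1 and Meg3 by library (y axis), at its distance from the start of the window in kb (x axis), with filled bars for the strongest peaks of a library. The 3 WT D10 libraries share peaks near 49, 59 and 81 kb that no KO or mESC library has. Both KO D10 libraries have a peak near 6 kb, as have WT D2 A and B.

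Peg3, a paternally expressed zinc finger protein, had less cover at D2 than at D0 in both genotypes. In chr7:6650000-6690000 the strongest peaks covered 1409 and 1490 bp in KO1 and KO2 D0, against 1049, 1342 and 1303 bp in WT. By D2 the cover was 662 and 0 bp in KO1 and KO2, against 0, 406 and 335 bp in WT. By D10 the cover was 0 and 557 bp in KO1 and KO2, against 518, 839 and 687 bp in WT. The D0 and D2 libraries did not overlap in either genotype. The exact permutation p over WT days was 0.00357, the smallest possible, and 0.236 under all deposited peaks. KO minus WT was -0.30, exact permutation p = 0.503; it turned to 0.17 under all deposited peaks, 0.05 without KO2 D2 and 0.02 without KO1 D10. A region at chr7:6661190-6661590 was gained by WT D10, with 4.76-, 5.18- and 5.02-fold peaks, and had a peak also in KO2 D10 (4.01-fold) and mESC 72 h (4.40-fold). The longest region, chr7:6685051-6685635, had peaks in all 3 WT D2 and both KO D2 libraries and in none at D10.

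Grb10, an adaptor that restrains insulin and growth factor signalling, had the most peaks, 149 of the 570, in chr11:11825000-11945000. The strongest peaks covered 4080 and 873 bp in KO1 and KO2 D0, against 3504, 2637 and 2356 bp in WT. Cover at D2 was 3361 and 504 bp in KO1 and KO2, against 2157, 2604 and 1490 bp in WT. Cover at D10 was 2662 and 504 bp in KO1 and KO2, against 2236, 1752 and 2116 bp in WT. On each day KO1 was above all WT libraries and KO2 below them, so the 2 lines lay on opposite sides of WT, by 0.52 and -1.60 on the log2 scale over all days. KO minus WT was -0.54, exact permutation p = 0.234, -0.93 without KO1 D2 (p = 0.0425) and 0.09 under all deposited peaks. Cover over WT days had an exact permutation p of 0.2. The 1320 bp region at chr11:11845667-11846986 was the longest lost in WT by D10. It had 9.55- and 7.34-fold peaks in KO1 and KO2 D0 and 8.10-, 8.49- and 4.65-fold peaks in WT D0. At D10 it had a 7.62-fold peak in KO1 and none in KO2 or in WT. The longest region, chr11:11830598-11832141, had a peak in all WT D2 and KO D2 libraries and in no D0 library.

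Kcnq1ot1 is a paternally expressed noncoding RNA that silences neighbouring genes in cis. In chr7:150380000-150490000 the strongest peaks covered 285 and 1638 bp in KO1 and KO2 D0, against 262, 0 and 888 bp in WT. At D2 they covered 1378 and 778 bp in KO1 and KO2, against 686, 718 and 818 bp in WT. At D10 they covered 940 and 632 bp in KO1 and KO2, against 843, 878 and 387 bp in WT. Genotypes overlapped on every day under the strongest peaks. The exact permutation p was 0.304 over WT days, 0.0357 without WT D0 C, and 0.218 for KO minus WT, which was 0.53. Under all deposited peaks KO lay above every WT library at D2, with 2470 and 2342 bp against 1419, 1036 and 1488 bp. It did so too at D10, where the KO lists were longer, with 1249 and 2324 bp against 843, 878 and 387 bp. KO minus WT over all days was then 0.65, exact permutation p = 0.082. The 375 bp region at chr7:150483294-150483668 had a peak in all 5 D0 libraries, at 4.96- and 4.90-fold in KO1 and KO2 and 3.88- to 4.91-fold in WT, and in no D2, D10 or mESC library. The longest region, chr7:150474060-150474839, had its most significant peak in KO1 D2 at 10.5-fold.

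H19, a maternally expressed noncoding RNA, and Igf2, a growth factor expressed from the paternal copy, held 25 peaks in chr7:149750000-149855000. The strongest covered 328 and 0 bp in KO1 and KO2 D0, against 0, 316 and 273 bp in WT. By D2 the cover was 1239 and 0 bp in KO1 and KO2, against 697, 710 and 724 bp in WT. By D10 the cover was 0 and 361 bp in KO1 and KO2, against 344, 689 and 0 bp in WT. WT D2 lay above all other WT libraries and the KO lines lay on both sides of it. The exact permutation p over WT days was 0.129, or 0.0214 without WT D10 C. KO minus WT was -0.46, exact permutation p = 0.426, and 0.012 without KO2 D2. Both called regions lay close together, at chr7:149839635-149840375, which was lost by D10, and chr7:149841438-149841783, which was gained by D2 and lost by D10. In KO they had peaks in KO1 D2 at 5.79- and 6.68-fold, and the first had one in KO2 D10 at 4.57-fold.

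Nnat, which encodes the paternally expressed neuronatin, had 10 peaks in the shortest window, chr2:157380000-157395000. The strongest covered 0 bp in all 5 D0 libraries. Cover at D2 was 431 and 422 bp in KO1 and KO2, against 0 bp in each WT library. Cover at D10 was 0 and 309 bp in KO1 and KO2, against 0, 274 and 0 bp in WT. The D2 values did not overlap, but under all deposited peaks WT D2 A and B had 436 and 401 bp. The exact permutation p was 1 over WT days and 0.13 for KO minus WT, which was 0.64 on the log2 scale. The exact permutation p for KO minus WT was 0.025 without KO1 D10 and 0.05 without WT D10 B. No region of Nnat was gained or lost between WT days, and the longest, chr2:157380221-157380706, had peaks in WT D10 A and B only.

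Over 10 kb windows of the genome, limma was fitted to log2(bp + 200) with Benjamini-Hochberg adjustment over 14776 windows in the 9 WT libraries. Of 73 windows in the loci, 6 had enough cover to be tested, a mean of at least 500 bp, and they lay in Gnas, Grb10 and Igf2r. Between D0 and D2, 2 of the 6 rose (background 14.8%) and 2 fell (background 2.98%). Between D2 and D10, 3 rose (background 13.8%) and 2 fell (background 33.2%), and from D0 to D10, 2 rose (background 22.7%) and 1 fell (background 27.1%). The median log2 change of the 6 was 0.75, 0.09 and 0.56 in these comparisons, against 0.38, -0.60 and -0.18 over all windows. In 5 of the 6 the mean reached 500 bp only through the day with the highest cover. The filter thus favoured windows that differ between days, and these 5 are described below by their values with no p. No count speaks for the loci as a whole. Leaving out any one WT D2 library left 2 calls in all between D0 and D2, and leaving out WT D10 A left 3 between D2 and D10. No genome share is given for these fits.

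The Igf2r window at chr17:12880001-12890000 had 0 bp in each WT D0 library, 0, 706 and 0 bp in WT D2 and 1788, 1977 and 1406 bp in WT D10. With weaker peaks included, WT D2 cover there was 1167, 706 and 256 bp. In Gnas, chr2:174170001-174180000, which reaches past the end of the locus, had 0 bp in each WT D0 library, 1039, 626 and 534 bp in WT D2 and 1746, 1577 and 866 bp in WT D10. The D2 and D10 libraries overlapped there, and neither overlapped D0. The adjacent Gnas window, chr2:174160001-174170000, was the one whose mean passed 500 bp also without its highest day. It had 879, 1026 and 844 bp in WT D0, 1635, 2486 and 2012 bp in WT D2 and 959, 362 and 235 bp in WT D10. From D2 to D10 it fell by 1.36 ± 0.36 (SE), limma adjusted p = 0.0122, and by 0.90 with adjusted p = 0.0617 when libraries were centred on their median window.

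In Grb10, neighbouring windows differed in which day had the most cover. The window chr11:11840001-11850000 had 1580, 1691 and 699 bp in WT D0, 341, 601 and 0 bp in WT D2 and 0 bp in each WT D10 library. The window chr11:11830001-11840000 had 847, 946 and 467 bp in WT D0, 0 bp in each WT D2 library and 1513, 871 and 453 bp in WT D10. All deposited peaks covered 574 to 1134 bp of it in WT D2, so the gap at D2 lay among the strongest peaks only. The window chr11:11930001-11940000 had 247, 0 and 0 bp in WT D0, 1490, 1621 and 1490 bp in WT D2 and 395, 0 and 212 bp in WT D10.

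KO was compared with WT in a limma fit of all 15 pre-iPSC libraries over 15744 windows, 5 of them in the loci. None of the 5 was called at D0 (background 0.0508% of windows in either direction), D2 (0.0254%) or D10 (25.9%), nor in KO between D0 and D2 (1.8%) or between D2 and D10 (0.0%), nor for a D2 to D10 change that differed between KO and WT (11.2%). At unadjusted p of 0.05 or less, 1 of the 5 passed at D10 and 1 in KO between D0 and D2, and none passed in the others. The share of all windows at that threshold is not given, so these counts have no background. At D10 it cannot be below the 25.9% called after adjustment. The window that passed at D10 was the Igf2r window at chr17:12880001-12890000, where KO minus WT was -2.01 ± 0.88 (SE). Over the WT libraries this window averaged 779.9 bp, but 97.8 bp without D10. It thus passed the filter through the group that is high in this comparison, and it is described without a p. Its strongest peaks covered 0 and 1554 bp in KO1 and KO2 D10, against 1788, 1977 and 1406 bp in WT D10. Without KO2 D10, 2 windows were called at D10, in Igf2r and Grb10 (background 28.8%), and 1 for the difference in change, in Igf2r (background 17.3%). KO D10 is then the KO1 library alone, which is assumed to vary like the other groups. Both Igf2r calls are of the window at chr17:12880001-12890000, which passed the filter through WT D10. There KO minus WT was -3.61 at D10, and the difference in change was -4.05. These calls thus rest on a selected window and on a single KO D10 library, and no conclusion is drawn from them. Under all deposited peaks, which follow list length, KO was called higher at D10 in 3 of 8 locus windows (background 34.7%). They were Gnas at chr2:174110001-174120000, by 3.08 ± 0.55 (limma adjusted p = 0.000901), Gnas at chr2:174160001-174170000, by 1.71 ± 0.48 (limma adjusted p = 0.012), and Grb10 at chr11:11840001-11850000, by 2.40 ± 0.68 (limma adjusted p = 0.0128).

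In the main fits, the filter at a mean of 500 bp kept out all windows of Dlk1 and Meg3. Without the filter, chr12:110730001-110740000, chr12:110740001-110750000 and chr12:110760001-110770000 were called higher in WT D10 than D2, as were 8176 of 92426 windows in the genome. They were also called lower in KO than WT at D10, as were 6206 of 103089 in the genome. Only the 3 WT D10 libraries had any of the strongest peaks in these windows, so the calls rest on those libraries.

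KO libraries were also read at the regions that WT gained and lost. Of the 14 gained between WT D0 and D2, KO1 D2 had a peak in 14 and KO2 D2 in 11, against 81.09% and 53.93% of the 24995 such regions in the genome. Of the 13 lost between WT D2 and D10, KO1 D10 had a peak in 7 (53.85%) and KO2 D10 in 8 (61.54%), against 76.75% and 53.19% of the 41265 such regions in the genome. Of the 6 gained between WT D2 and D10, KO1 D10 had none and KO2 D10 had 1 (16.67%), against 2.03% and 15.8% of 9957 in the genome. The counts are small and are given as a description. Across KO and mESC lists, 36 merged regions in the loci had no WT peak, 25 with KO peaks only, 10 with mESC peaks only and 1 with both.

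In mESC the loci held 14, 13 and 14 peaks at 0, 12 and 72 h, or 5496, 4061 and 3895 bp, with no replicates. With equal lists of 24120 peaks there were 12, 8 and 14. Grb10 had peaks at each time, covering 1345, 1949 and 1070 bp, as had Gnas with 276, 962 and 483 bp and Dlk1/Meg3 with 1940, 1150 and 223 bp. Igf2r had 1186, 0 and 808 bp, Peg3 had 0, 0 and 1092 bp, H19/Igf2 had 749, 0 and 0 bp, Kcnq1ot1 had 0, 0 and 219 bp and Nnat had none. Cover was higher at 72 h than at 0 h in Peg3, Kcnq1ot1 and Gnas, and no error can be given for these single libraries.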

How the data were processed

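5hmC was measured by tagging it with a modified glucose, capture through biotin and sequencing of 200 to 500 bp fragments after 14 PCR cycles, per the labels' protocols. Bowtie, SAMtools, MACS2 and the mm9 build are named in the submitters' processing notes, without versions. The authors deposited 1 peak list per library, and a p of 0.0001 stands in the run names. Per the MACS2 layout of the deposited files, each peak has a score, a fold enrichment as a ratio, and -log10 of p and q. A label says that peaks were not called for mESC, yet their lists were deposited and used. The run name of WT D0 C alone lacks the word input, and those of WT B and KO1 carry the word All.

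Covered bp were summed here under the 55130 strongest peaks by -log10 p on chromosomes 1 to 19 and X. Windows of 10 kb were scaled to the mean total, filtered at a mean of 500 bp and fitted with limma 3.58.1 in R 4.3.3 on log2(bp + 200), called at an adjusted p of 0.05. Exact permutation tests used Python 3.11.15 and were run over 100 kb tiles of the genome for the background, and the tests were tried on simulated data. The loci were described by all 8 members, and regions were named as the longest of a locus and the longest gained and lost; windows were named where past the threshold. The genes and lists were chosen with earlier results of these data known. KO numbers name the same cell line on each day, so they pair the KO libraries (correlations of deviations 0.229 to 0.337). WT letters did not pair (-0.039 to 0.048). No mm9 genome or annotation was used, so exons and peak sequences are not given. Alternatives were other peak sets, pseudocounts, filters, grids, scalings and left-out replicates.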

Additional observations from a re-analysis of the deposited data

Results flagged for a closer look

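In Dlk1/Meg3 the cover under the strongest peaks moved in opposite directions in KO and WT from D2 to D10. KO covered 457 and 308 bp at D10, against 492 and 895 bp at D2, and WT covered 2158, 2416 and 1513 bp at D10, against 0 bp in each D2 library. The KO change minus the WT change was -4.05 on the log2(bp + 200) scale, and this difference over the locus was not tested. Under all deposited peaks it was -2.34, where KO1 covered 801 bp at D10, against 492 bp at D2, so the KO libraries no longer moved one way.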

How the results depend on the processing

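Of the counts over the loci, 176 values under the alternatives stayed within 1.5 times the main count and 49 did not. Peaks counted: of the loci with cover that changed over WT days, 2 passed with all deposited peaks, with those of -log10 q 5 or more (below, with q) or with the replicate block (main 4), and of those that differed between KO and WT, 1 passed with all deposited peaks, 2 with q, 1 with a pseudocount of 1000 bp and 0 to 1 with a replicate left out (main 0). Windows called between WT D0 and D2 were 2 with q, with the grid shifted by 5 kb, with all 15 libraries fitted, and 2 to 3 with a replicate left out (main 4 of 6). With q, 1 of 8 was higher and 1 lower at D2, as were 1494 and 348 of 23252 in the genome. Between WT D2 and D10 they were 13 of 43 with no filter, 3 with the shifted grid, 3 with 15 libraries, and 3 to 5 with a replicate left out (main 5 of 6). With no filter 8 were higher and 5 lower at D10, as were 8176 and 8203 of 92426 in the genome. Between WT D0 and D10 they were 5 of 8 with q and 10 of 43 with no filter (main 3 of 6). With q, 4 were higher and 1 lower at D10, as were 5730 and 6132 of 23252 in the genome. With no filter 7 were higher and 3 lower, as were 9953 and 12134 of 92426. KO against WT at D10 gave 0 windows in the main fit. With all deposited peaks 3 of 8 were higher in KO, as were 9573 of 27614 in the genome. With q, 1 of 7 was higher and 2 lower, as were 6022 and 2011 of 24849. With no filter 6 of 48 were lower in KO, as were 6206 of 103089. There was 1 with 1000 bp and 1 with the 5 libraries of the day. Leaving out a KO D10 library leaves 1 in its group, so no count is given for left-out replicates. The interaction, whose alternatives were added after seeing the data, gave 0 in the main fit. With all deposited peaks 1 of 8 was higher, as were 3486 of 27614 in the genome. With no filter 3 of 48 were lower, as were 2175 of 103089. Genome shares are not given for the other window settings, so those counts have no background. Regions under the strongest peaks alone were 5 gained and 1 lost between D0 and D2, 2 lost between D2 and D10, 3 lost between D0 and D10 and 0 in every WT library. Regions gained by D10 remained under these peaks too, with counts not given here. With a replicate left out, 14 to 23 were gained and 2 to 7 lost between D0 and D2, and 6 to 14 were gained between D2 and D10. Between D0 and D10, 13 to 23 were gained and 6 to 14 lost, and 1 to 2 were in every library. Leaving out a library can only keep or raise these counts, and no genome share was taken for the region alternatives. Where peaks had to cover at least as much of a region as they left bare, 8 were lost between D2 and D10, 8 gained and 3 lost between D0 and D10 and 0 were in every library. mESC at 12 h had 8 peaks with equal lists and 5 with q, and at 72 h 8 with q. KO minus WT turned to -0.22 in Dlk1/Meg3, 0.17 in Peg3 and 0.09 in Grb10 with all deposited peaks, to 0.38 in Peg3 and 0.11 in Grb10 with q, and to -0.073 in Dlk1/Meg3 with 1000 bp. With a replicate left out it ranged from -0.94 to 0.012 in H19/Igf2 and from -0.65 to 0.05 in Peg3. The Grb10 window at chr11:11830001-11840000 turned to 0.18 between D0 and D2 with all deposited peaks. In the loci, the replicate block gave exact permutation p of 0.0556 for Dlk1/Meg3 and 0.111 for Igf2r over WT days, although WT letters share only a number, and KO lines as a replicate block changed no call. A filter at 2000 bp left no locus window. The cause was not tested. The lists hold no depth, and the number of peaks per list limits what can be seen.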
